A study of Mus musculus with 20 samples.

Results

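Fibroblast growth factors (FGFs), their receptors and the inhibitor Spry2 were followed in whole tracheas of wild-type and Myd88 knockout (Myd88KO) mice, before and after injury of the airway lining. The genes were 5 ligands (Fgf1, Fgf2, Fgf7, Fgf10 and Fgf18), 4 receptors (Fgfr1 to Fgfr4) and Spry2. Every array probe that carried 1 of these 10 gene names was used, which gave 22 of the 41174 probes on the array, and 20 of the 22 passed the filter on dim signals. The samples formed 4 groups of 5 mice: uninjured wild-type (C57/Bl6), uninjured Myd88KO, and mice of each genotype that had received 2% polidocanol into the trachea 3 days earlier. Polidocanol is a detergent that strips the airway epithelium. The labels give an age of 4 months for every mouse and no sex, and no agent other than polidocanol. Uninjured mice were left untreated as far as the labels say. Myd88, an adaptor of Toll-like and interleukin-1 receptors, was deleted in every cell of the knockout mice, and the knockouts were bred apart from the wild-type colony, so that genotype and colony cannot be told apart.

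FGFs are secreted proteins that bind heparan sulphate and receptor tyrosine kinases, and the receptors signal through the adaptor Frs2 to the RAS and MAP kinase cascade. In the airway, Fgf7 and Fgf10 come from mesenchymal cells and act on the epithelial splice form of Fgfr2, whereas Fgf18 and Fgfr3 are best known from cartilage. Fgf1 and Fgf2 lack a classical secretion signal, and Fgf1 can bind all of the receptors. Sprouty proteins such as Spry2 are made in response to the signal and dampen it.

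Each array reported 1 intensity per spot. Levels below are log2 intensities relative to the 75th percentile of the array, a difference of 1 is a doubling, and levels of different probes are not compared, because probes bind with different strength. Differences are given with the 95% confidence interval of the limma fit over all 20 arrays and with a p value adjusted over all 26063 tested probes. A probe was called at an adjusted p under 0.01, and "rose" and "fell" are kept for called probes. In whole tissue, fewer cells of a type and less RNA per cell cannot be told apart.

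Every group had 1 array on each of 5 slides, so a slide gives its own difference between groups, and slides 1 and 5 were scanned on another day than slides 2 to 4. The single Myd88 probe had levels of 1.60 to 2.04 in uninjured Myd88KO and 1.94 to 2.28 in uninjured wild-type tracheas. Whether it lies in the deleted part of the gene is not known here, so it does not check the labels. Injured Myd88KO array 5 stood apart: its summed level of 8 proliferation markers was 3.72, within the 2.63 to 6.44 of uninjured Myd88KO tracheas, against 13.8 to 37.8 in the other injured Myd88KO arrays and 25.5 to 46.9 in injured wild-type. Uninjured wild-type array 3 had the highest proliferation sum of the uninjured groups (15.4 against at most 7.70). After injury in wild-type and Myd88KO mice, the median difference of a marker list was 0.33 and 0.35 for epithelium, -2.15 and -1.67 for secretory cells, -1.52 and -0.83 for ciliated cells, 1.79 and 1.15 for leukocytes and 2.28 and 2.13 for proliferation. It was -0.075 and -0.34 for cartilage, 0.017 and -0.19 for smooth muscle, -0.35 and -0.29 for skeletal muscle, 0.33 and -0.091 for endothelium and -0.049 and -1.10 for thyroid. Every listed marker gene passed the filter on dim signals except 1 of 5 thyroid genes.

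No member probe was called in any of the 5 comparisons. In the injury comparison of wild-type mice, 0 of 20 member probes passed, against 5.26% of all tested probes (2.03% called lower). For injury in Myd88KO mice the count was 0 of 20 against 0.376%, for genotype in uninjured tracheas 0 of 20 against 0.384%, and for genotype in injured tracheas 0 of 20 against 0.38%. The difference between the injury responses, Myd88KO minus wild-type, gave 0 calls among the members and 0.0% among all probes. At an adjusted p under 0.05, 1 member probe passed for injury in wild-type (5% against 12.7% of all probes) and 1 for injury in Myd88KO (5% against 3.23%). At an unadjusted p under 0.05, limma counted 5 member probes for injury in wild-type (25% against 26.4% of all probes), 5 for injury in Myd88KO (25% against 19.5%), 1 for genotype in uninjured tracheas (5% against 5.59%), 0 for genotype in injured tracheas (against 12.5%) and 0 for the difference between responses (against 10.4%). The methods' one-way test called 0 members in each of the 4 comparisons of a pair of groups. Of all probes it called 4.02% for injury in wild-type and 0.0% for injury in Myd88KO. For genotype it called 0.176% in uninjured and 0.0806% in injured tracheas. In both injury comparisons all 5 member probes with an unadjusted p under 0.05 were lower after injury. Of all probes, 11.9% in wild-type and 12.2% in Myd88KO were lower at that threshold. The 5 probes belonged to Fgf1, Fgf10 and Fgfr3 in wild-type and to Fgf1, Fgf10, Fgfr4 and Spry2 in Myd88KO, so some shared a gene. The median difference over the 20 probes was -0.11 after injury in wild-type mice and -0.21 in Myd88KO mice, where all tested probes had medians of 5.85e-05 and -0.069. Leaving out single arrays moved the member medians between -0.17 and -0.027 in wild-type and between -0.26 and -0.15 in Myd88KO. The injured array was below the uninjured one on every slide for 5 member probes in wild-type (25% against 12.1% of all probes) and for 3 in Myd88KO (15% against 13.9%).

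**Figure D1:**
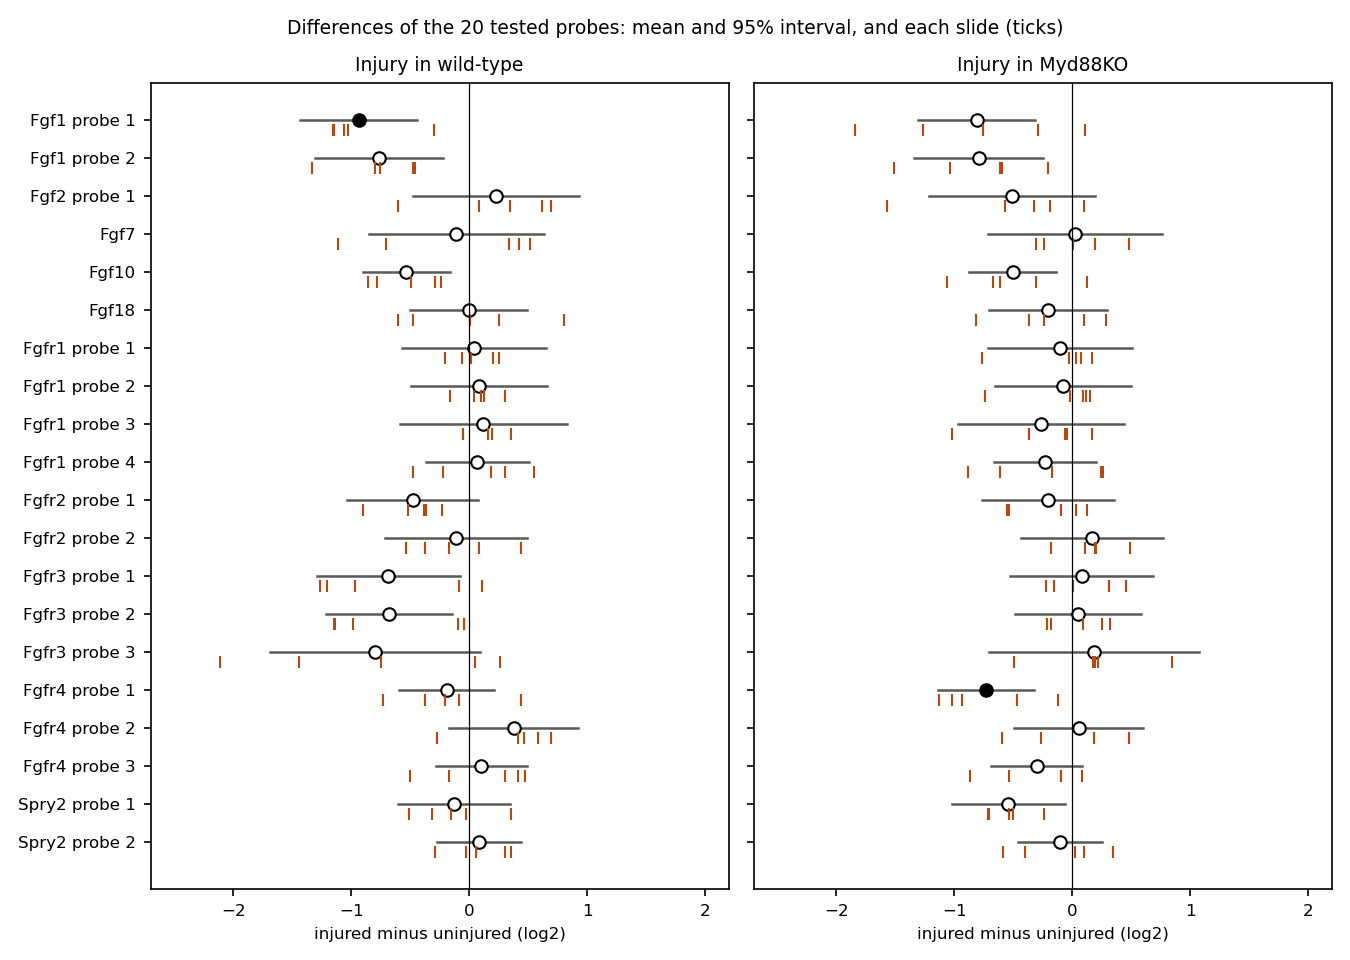
Injured minus uninjured differences on the log2 scale for the 20 tested probes, in wild-type (left) and Myd88KO tracheas (right). Circles are the fitted means and lines their 95% intervals, filled circles have an adjusted p under 0.05, and orange ticks are the differences on the 5 slides. Fgf1 probe 1 in wild-type (-0.94) and Fgfr4 probe 1 in Myd88KO (-0.74) are the filled points, and most other intervals span 0.

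Among the ligands, Fgf1 showed the largest difference after injury. Its brighter probe had levels of -1.74, -1.65, -1.95, -1.32 and -1.91 in the uninjured wild-type arrays 1 to 5 and of -2.88, -2.71, -2.98, -2.47 and -2.20 in the injured ones. Every injured wild-type array was below every uninjured one. Groups that did not overlap in the same direction were found for 4.68% of all probes. The difference was -0.94 (95% interval -1.43 to -0.44, adjusted p = 0.0137), a ratio of 1.91, and it was negative on all 5 slides (-1.15, -1.06, -1.03, -1.15 and -0.30). In the Myd88KO groups the same probe read -2.13, -0.83, -1.03, -1.54 and -2.17 before injury and -2.42, -2.67, -2.29, -2.29 and -2.06 after it. Here the groups overlapped, because uninjured arrays 1 and 5 were as low as the highest injured arrays. The difference was -0.81 (interval -1.31 to -0.31, adjusted p = 0.0661), and -0.88 (adjusted p = 0.0292) without injured Myd88KO array 5. Fgf1 is known from neural tissue and from fat, where it takes part in remodelling.

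The dimmer Fgf1 probe lies 18.1 kb away in the coordinates of the files and followed the brighter one with a correlation of 0.66 over the 20 arrays. Its differences were -0.76 (interval -1.31 to -0.22, adjusted p = 0.0616) in wild-type and -0.79 (interval -1.34 to -0.25, adjusted p = 0.0967) in Myd88KO tracheas, and it was lower after injury on all 5 slides in both genotypes. With the slide as a block these adjusted p values were 0.0116 and 0.0225, and with the scan day as a block 0.00849 and 0.0159, so that both Fgf1 probes were called in wild-type with the scan day in the fit (0.0091 for the brighter probe, against 8.08% of all probes called in that fit), while 0 member probes were called in Myd88KO, against 1.39%. The injury responses of the genotypes differed by 0.13 (interval -0.58 to 0.83) for the brighter probe and by -0.033 (interval -0.80 to 0.74) for the dimmer one. Both intervals are wide and include responses that differ by more than 0.5. Fat markers had medians of -0.39 and -0.77 after injury in wild-type and Myd88KO mice. Against 5.26% and 0.376% of all probes, none of the 11 fat marker probes (7 of 7 genes) was called. Their summed level ranged from 295.1 to 569.5 in uninjured and from 169.2 to 525.5 in injured wild-type tracheas, and from 455.9 to 822.4 and 248.9 to 699.6 in the Myd88KO groups. The part of fat in the Fgf1 values was not tested.

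Fgf10, the mesenchymal ligand that drives lung budding and supports airway progenitors, followed the same course at a smaller size. Its levels were -1.69, -1.88, -1.88, -2.03 and -1.77 in uninjured and -1.93, -2.66, -2.17, -2.88 and -2.26 in injured wild-type tracheas. The injured array 1 lay inside the uninjured range and the other 4 lay below it. In Myd88KO mice the values were -1.79, -1.86, -2.10, -1.85 and -2.14 without injury, and -2.85, -2.47, -2.41, -2.52 and -2.01 with it. Only injured array 5, the array that stood apart, reached into the uninjured range. The differences were -0.53 (interval -0.90 to -0.16, adjusted p = 0.0534) in wild-type and -0.51 (interval -0.88 to -0.14, adjusted p = 0.117) in Myd88KO, and -0.62 (adjusted p = 0.0269) in Myd88KO without array 5. On the slides the wild-type difference was always negative (-0.24, -0.78, -0.29, -0.86 and -0.49), and the Myd88KO difference was negative on 4 of 5. The response differed between genotypes by 0.023 (interval -0.50 to 0.54). Fibroblast markers, which mark the main cells known to make this ligand, had medians of 0.77 in wild-type and 0.004 in Myd88KO after injury. Of their 14 probes (8 of 8 genes) 1, for Thy1, rose in wild-type, where 3.24% of all probes were called higher. Summed fibroblast markers ranged from 590.2 to 1063 after injury and from 430.5 to 706.8 before it in wild-type tracheas. In Myd88KO tracheas the ranges were 358.5 to 666.5 after and 226.7 to 714 before injury. The part of fibroblasts in the Fgf10 values was not tested.

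**Figure D2:**
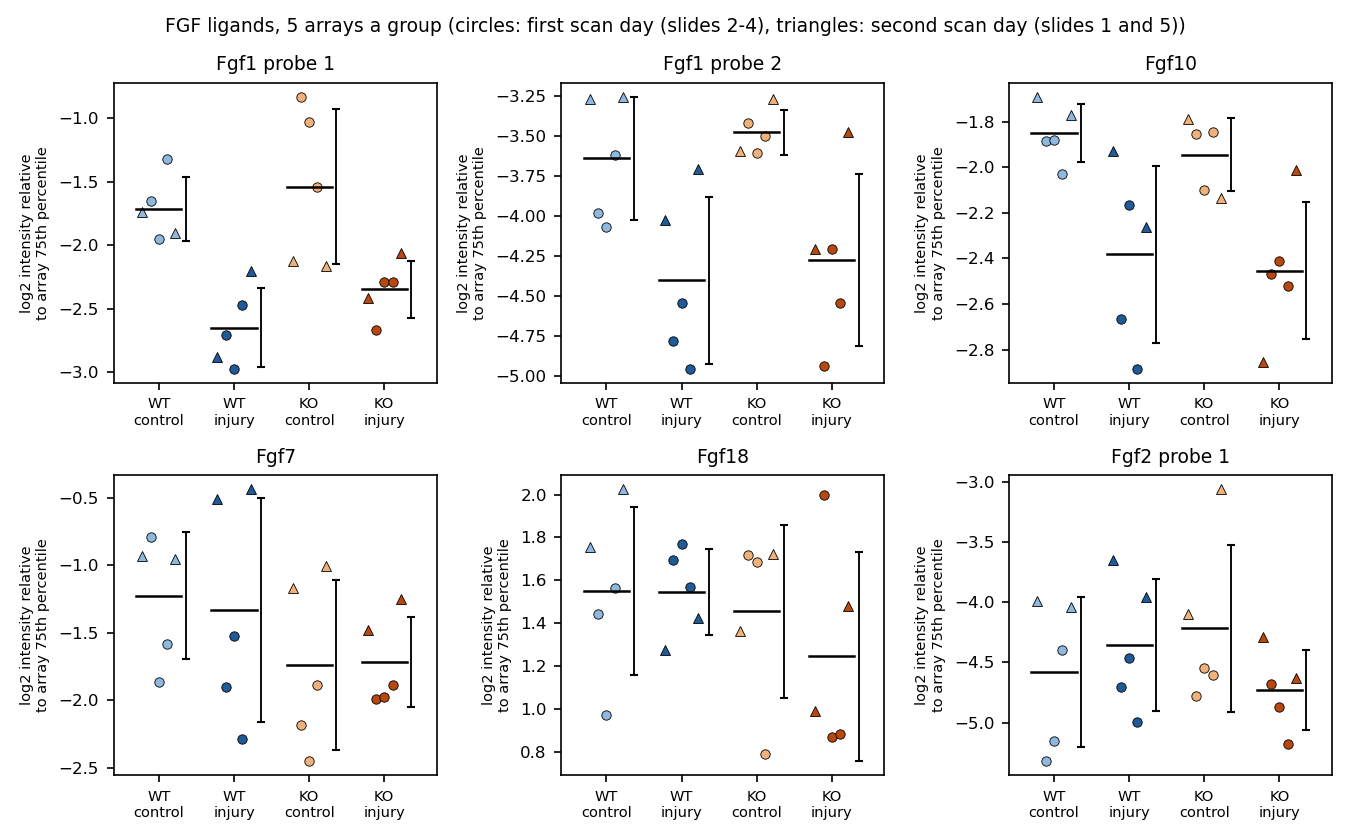
Levels of the 5 ligands (both Fgf1 probes, Fgf2 probe 1, Fgf7, Fgf10 and Fgf18) in the 20 arrays, as log2 intensity relative to the array's 75th percentile. Points stand for arrays 1 to 5 from left to right, horizontal lines for group means and error bars for the SD. The injured wild-type points of Fgf1 probe 1 (-2.98 to -2.20) all lie below the uninjured ones (-1.95 to -1.32), and for Fgf2 the triangles, arrays of the second scan day, lie above the circles in every group.

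The other ligands, like Fgf1 and Fgf10, had no called probe in the fit without a block. Fgf7, also called keratinocyte growth factor, read -0.93, -0.79, -1.87, -1.58 and -0.95 in uninjured wild-type and -0.51, -1.90, -1.52, -2.29 and -0.44 in injured wild-type tracheas. These groups overlapped widely, and the interval of the difference was -0.85 to 0.63. In Myd88KO mice Fgf7 read -1.17, -2.18, -2.45, -1.89 and -1.01 before and -1.48, -1.99, -1.97, -1.88 and -1.25 after injury, with an interval of -0.72 to 0.76. Uninjured Myd88KO tracheas were below uninjured wild-type on all 5 slides by a mean of 0.52, but the adjusted p was 1.00 and the groups overlapped. Such a lower value on every slide was found for 5.13% of all probes. Fgf18, which stimulates chondrocytes, ranged from 0.97 to 2.03, 1.28 to 1.77, 0.79 to 1.72 and 0.87 to 2.00 in uninjured wild-type, injured wild-type, uninjured Myd88KO and injured Myd88KO tracheas. The 4 ranges overlapped, and the intervals of the injury differences were -0.50 to 0.49 and -0.71 to 0.29.

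Fgf2, or basic FGF, was close to background. Its brighter probe was well above background on 14 of 20 arrays, ranged from -5.32 to -3.06, and had injury intervals of -0.48 to 0.93 in wild-type and -1.22 to 0.19 in Myd88KO tracheas. The response differed between genotypes by -0.74 (interval -1.74 to 0.26, adjusted p = 0.582). The dimmer Fgf2 probe was well above background on 6 of 20 arrays and was not tested. It was so on 0 of 5 injured Myd88KO arrays and on 3 of 5 injured wild-type arrays, whose means were -5.64 and -4.56. A probe this close to background gives no firm difference between the genotypes.

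Of the receptors, Fgfr3 gave the largest difference between the genotypes' responses, on each of its 3 probes. Fgfr3 restrains the growth of cartilage and is also made in epithelia. Its brightest probe read 1.10, 1.65, 2.27, 1.29 and 1.42 in uninjured and 0.13, 1.56, 1.07, 1.39 and 0.15 in injured wild-type tracheas. Injured arrays 1 and 5 were the lowest of all 20 arrays, arrays 2 and 4 stayed within the uninjured range, and uninjured array 3 was the highest. Arrays 1 and 5 of every group were scanned on the second day. With the group in the fit, this probe differed by -0.61 between the second day and the first. In Myd88KO tracheas it read 0.89, 1.48, 1.67, 1.50 and 1.19 before and 0.90, 1.25, 1.98, 1.34 and 1.64 after injury, groups that overlapped almost fully. The wild-type differences of the 3 probes were -0.68 (interval -1.29 to -0.08), -0.68 (interval -1.21 to -0.15) and -0.80 (interval -1.69 to 0.09), with adjusted p values of 0.135, 0.0875 and 0.247. In Myd88KO the differences were 0.077, 0.050 and 0.19, with adjusted p values of 0.915, 0.939 and 0.852.

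The difference between the Fgfr3 responses was 0.76 (interval -0.10 to 1.62, adjusted p = 0.525), 0.73 (interval -0.02 to 1.48, adjusted p = 0.493) and 0.98 (interval -0.28 to 2.24, adjusted p = 0.565). It did not pass the test, and the first 2 probes overlap by 37 bases and moved together with a correlation of 0.99, so they are not separate evidence. On the slides the wild-type difference of the brightest probe was -0.97, -0.09, -1.20, 0.11 and -1.27, so slides 2 and 4 showed almost none. With the slide as a block the adjusted p values in wild-type were 0.0373, 0.0239 and 0.0721, and 5 of 20 member probes were under 0.05 in that fit (25% against 17.2% of all probes). Without uninjured wild-type array 3 the wild-type differences were -0.50, -0.51 and -0.53 (adjusted p = 0.274, 0.197 and 0.439). The summed level of epithelial markers (11 of 11 genes) was 379.2 and 383.9 in injured wild-type arrays 1 and 5 and 793.4 to 904.3 in arrays 2 to 4. Array 3 of that group had 793.4, with the brightest Fgfr3 probe at 1.07. The sum was 407.2 to 676.3 in uninjured wild-type and 386.6 to 566.1 in uninjured Myd88KO tracheas. In injured Myd88KO tracheas it was lowest in array 5 (498.8) and highest in array 2 (805.9), where the brightest Fgfr3 probe read 1.64 and 1.25. The ciliated markers (6 of 6 genes) summed to 2.90 and 4.12 in injured wild-type arrays 1 and 5 and to 22.4 to 42.1 in arrays 2 to 4. In injured Myd88KO tracheas the ciliated sum was lowest in array 4 (2.77) and highest in array 1 (121.3). The brightest Fgfr3 probe read 1.34 and 0.90 there. Uninjured ciliated sums were 17.3 to 44.2 in wild-type and 25.1 to 32.6 in Myd88KO. No marker was at 0, and the part of the epithelium in the Fgfr3 values was not tested.

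Fgfr2, the receptor of Fgf7 and Fgf10 in epithelium, was low in the same arrays. Its brightest probe read 0.50, 1.12, 1.32, 0.98 and 0.20 in uninjured and -0.40, 0.75, 0.81, 0.75 and -0.19 in injured wild-type tracheas, again with injured arrays 1 and 5 lowest, although the uninjured arrays 1 and 5 were the lowest of their own group too. Each slide had the injured array below the uninjured one, by a mean of 0.48 (interval -1.03 to 0.08, adjusted p = 0.268, and 0.0449 with the slide as a block). In Myd88KO mice the values were 0.47, 1.21, 1.16, 0.98 and 0.42, and after injury 0.59, 0.66, 1.06, 0.44 and 0.46. The difference there was -0.21 (interval -0.77 to 0.35, adjusted p = 0.713) with both signs on the slides. A second Fgfr2 probe 0.74 kb away correlated with it at 0.75 over the 20 arrays and was also lowest in injured wild-type arrays 1 and 5 of its group (-2.98 and -3.06), but its injury intervals were -0.71 to 0.49 in wild-type and -0.44 to 0.76 in Myd88KO. The third probe, 129.4 kb from the first, was well above background on 6 of 20 arrays and was not tested. Esrp1 and Esrp2, which direct the epithelial splicing of Fgfr2, were measured by 3 probes. Against 5.26% of all probes for injury in wild-type and at most 0.384% in the other comparisons, 0 of these 3 were called. Their medians were -0.076 in wild-type and 0.25 in Myd88KO after injury.

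Fgfr4, the receptor best known for bile acid control in liver, gave probes that disagreed. Probe 1 read -2.21, -2.01, -2.01, -1.94 and -2.06 in uninjured wild-type and -1.44, -1.46, -1.74, -1.63 and -1.40 in uninjured Myd88KO tracheas, so that every knockout array was above every wild-type array. Its genotype difference was 0.51 (interval 0.11 to 0.92, adjusted p = 0.599, and 0.0396 by the methods' one-way test) and was positive on all 5 slides, as for 9.04% of all probes. Groups that did not overlap in this direction were found for 1.71% of all probes. After injury the probe read -1.77, -2.39, -2.74, -2.15 and -2.14 in wild-type and -2.58, -2.40, -2.21, -2.65 and -1.52 in Myd88KO mice. The injured Myd88KO arrays 1 to 4 lay below all uninjured Myd88KO arrays, and array 5 lay among them.

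The Fgfr4 injury difference in Myd88KO mice was -0.74 (interval -1.14 to -0.33, adjusted p = 0.0438), a ratio of 1.66, and was negative on all 5 slides (-1.13, -0.94, -0.47, -1.02 and -0.12). Without injured array 5 it was -0.92, with an adjusted p of 0.00155, in a fit that called 4.12% of all probes in this comparison. The uninjured Myd88KO arrays enter both this comparison and the genotype comparison above. Wild-type tracheas showed -0.19 (interval -0.60 to 0.22, adjusted p = 0.572), and the responses differed by -0.54 (interval -1.12 to 0.03, adjusted p = 0.504). The other probes lie within 0.76 kb of probe 1 and correlated with it at -0.25 and 0.038 over the 20 arrays. Their genotype intervals in uninjured tracheas were -0.73 to 0.36 and -0.23 to 0.55, and their Myd88KO injury intervals -0.49 to 0.60 and -0.69 to 0.08. The Fgfr4 difference was thus seen on 1 of 3 probes.

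**Figure D3:**
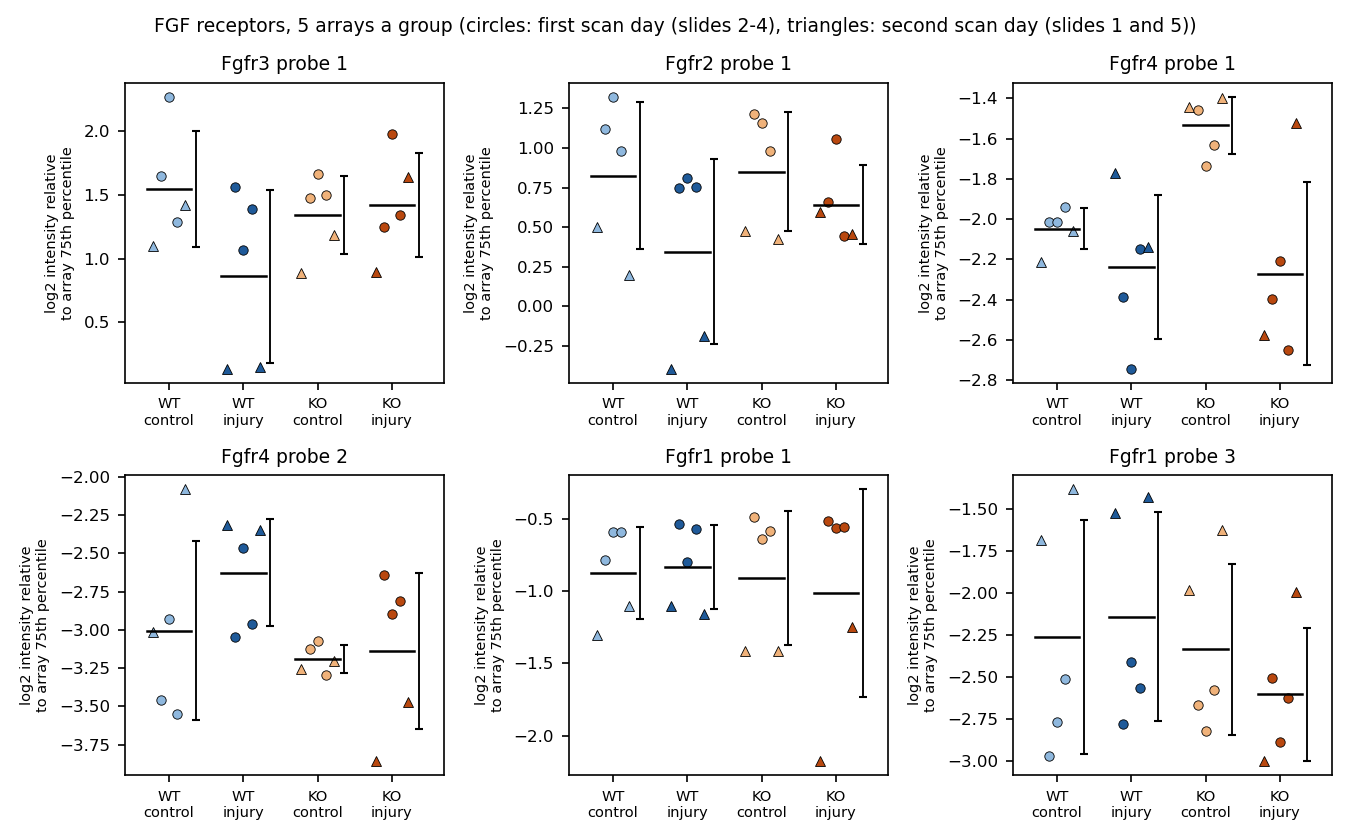
Levels of receptor probes in the 20 arrays, as log2 intensity relative to the array's 75th percentile, with points for arrays 1 to 5 from left to right, lines for group means and bars for the SD. Fgfr3 probe 1 and Fgfr2 probe 1 are lowest in injured wild-type arrays 1 and 5, Fgfr4 probe 1 separates the uninjured genotypes while probe 2 does not, and Fgfr1 probe 1 separates by scan day (-2.18 to -1.10 on the second, -0.79 to -0.49 on the first), while the days overlap on Fgfr1 probe 3.

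Fgfr1, the receptor most widely made in mesenchymal tissue, did not differ between groups on any of its 4 probes. Its brightest probe read -1.31, -0.78, -0.59, -0.59 and -1.10 in uninjured and -1.10, -0.53, -0.79, -0.57 and -1.16 in injured wild-type tracheas, and -1.42, -0.49, -0.63, -0.58 and -1.41 in uninjured and -2.18, -0.51, -0.56, -0.55 and -1.25 in injured Myd88KO tracheas. All groups overlapped. The injury intervals were -0.57 to 0.65 in wild-type and -0.71 to 0.50 in Myd88KO, and the unadjusted p of the 4 probes was at least 0.188 in every comparison. Injured Myd88KO array 1 was the lowest of the 20 arrays on all 4 probes, with -2.18, -2.40, -3.0 and -4.30.

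The Fgfr1 levels separated by slide. The arrays of slides 1 and 5 had levels of -2.18 to -1.10 on the brightest probe, and those of slides 2 to 4 had -0.79 to -0.49, with no overlap. The difference between scan days, with the group in the fit, was -0.77 (adjusted p = 7.18e-05). A probe that overlaps it by 39 bases gave -0.72. The Fgfr1 probe 41.6 kb away moved the other way, by 0.85 (adjusted p = 0.000353) with days that overlapped, and the fourth probe, 3.90 kb from the brightest, gave -0.11 (adjusted p = 0.588). Over the whole family 11 of 20 member probes differed between the scan days at an adjusted p under 0.01, a share of 55% against 21.1% of all probes. Both Fgfr2 probes (-0.68 and -0.79) and Fgfr3 probes 1 and 3 (-0.61 and -0.99) were lower on the second day, and Fgf7 (0.89), Fgf2 (0.84), Spry2 probe 1 (0.58) and Fgf1 probe 2 (0.58) were higher. Each day held the same number of arrays of every group, so these shifts entered the spread within groups rather than the difference between them. The cause of the shifts was not tested.

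Spry2 stood for the feedback arm. Its brighter probe read 1.58, 1.13, 0.68, 0.67 and 1.79 in uninjured and 1.26, 0.97, 0.66, 1.03 and 1.28 in injured wild-type tracheas, with wide overlap and a difference of -0.13 (interval -0.60 to 0.35, adjusted p = 0.764), which was -0.25 without uninjured array 3 and 0.025 without uninjured array 5. In Myd88KO mice it read 1.58, 0.96, 1.18, 1.28 and 1.92 before and 1.04, 0.72, 0.67, 0.57 and 1.20 after injury. Each slide had the injured array below the uninjured one (-0.54, -0.24, -0.51, -0.71 and -0.72), although arrays of different slides overlapped. That difference was -0.54 (interval -1.02 to -0.066, adjusted p = 0.197, and 0.0279 with the slide as a block, where 3 of 20 member probes and 6.78% of all probes were under 0.05). A lower value on every slide was found for 13.9% of all probes in this comparison. The responses differed by -0.41 (interval -1.09 to 0.26, adjusted p = 0.654). The second Spry2 probe, 0.52 kb away, had intervals of -0.27 to 0.44 in wild-type and -0.46 to 0.25 in Myd88KO.

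Spry1, another sprouty gene and 1 of the listed inhibitors, fell after injury in both genotypes. Its levels were 2.11, 1.72, 1.93, 1.70 and 2.02 in uninjured and 1.26, 1.09, 1.12, 1.22 and 1.36 in injured wild-type tracheas. In Myd88KO mice they were 2.14, 1.98, 2.11, 1.98 and 2.07 before and 0.92, 0.98, 1.27, 0.83 and 1.65 after injury. Injured and uninjured arrays did not overlap in either genotype (4.68% of all probes in wild-type and 2.3% in Myd88KO were lower without overlap), and array 5 was the highest of the injured Myd88KO group. Spry1 fell by 0.69 on the log2 scale in wild-type (interval -0.99 to -0.38, adjusted p = 0.00459) and by 0.92 in Myd88KO (interval -1.23 to -0.62, adjusted p = 0.005), and it was lower on all 5 slides in both. The responses differed by -0.24 (interval -0.67 to 0.19, adjusted p = 0.69). In Myd88KO the call was lost when only the 2 groups compared were fitted (adjusted p = 0.0671), a fit that called 0 of all 26063 probes in this comparison. Without injured array 5 the adjusted p was 4.66e-05, in a fit that called 4.12% of all probes.

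Egr1, an immediate early transcription factor made in response to MAP kinase signals, fell in Myd88KO mice. It read 3.30, 2.06, 2.67, 3.08 and 3.35 in uninjured and 1.10, 1.10, 0.55, 0.96 and 1.48 in injured Myd88KO tracheas. Every injured array was below every uninjured one, and the drop was 1.85 on the log2 scale (interval -2.49 to -1.22, adjusted p = 0.00524), a ratio of 3.62. In wild-type mice Egr1 read 2.18, 1.97, 3.06, 1.27 and 1.81 before and 1.35, 1.35, 1.08, 1.65 and 2.24 after injury, with overlapping groups and a difference of -0.52 (interval -1.15 to 0.12, adjusted p = 0.293), which was -0.27 (adjusted p = 0.562) without uninjured array 3. The responses differed by -1.33 (interval -2.23 to -0.44), with an adjusted p of 0.391, so a difference between the genotypes was not shown. The uninjured Myd88KO arrays were above the uninjured wild-type arrays on 4 of 5 slides, by a mean of 0.84 (interval 0.20 to 1.47, adjusted p = 0.532), or 1.09 (adjusted p = 0.134) without uninjured wild-type array 3. The call in Myd88KO was lost when only the 2 groups compared were fitted (adjusted p = 0.0345) and by the methods' one-way test (0.109). Both of these called 0 of all 26063 probes in this comparison, so the loss is not particular to Egr1. The call was also lost on leaving out any of 7 of the 20 arrays.

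**Figure D4:**
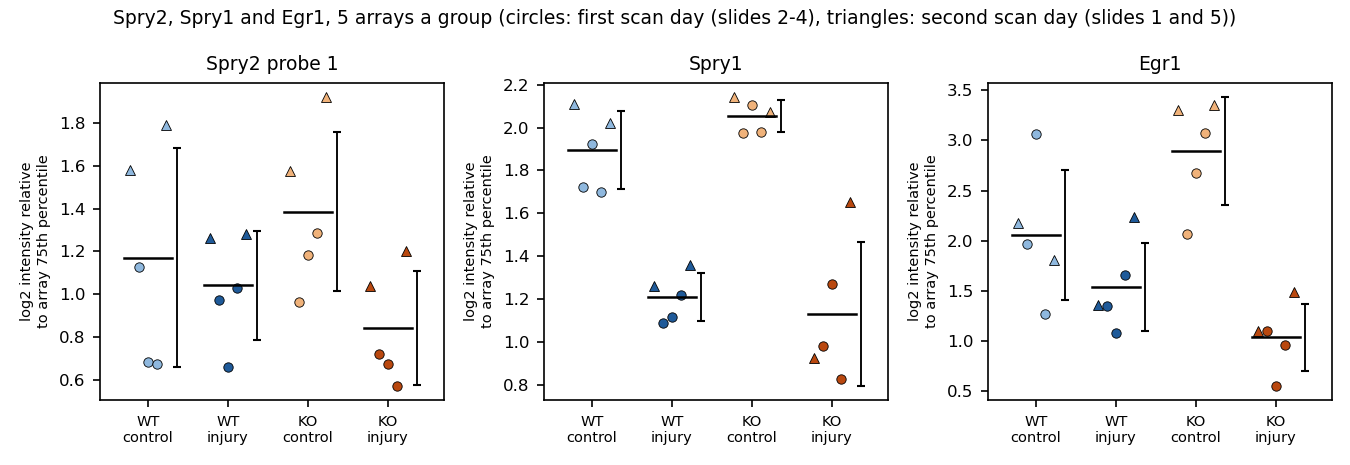
Levels of Spry2 probe 1, Spry1 and Egr1 in the 20 arrays, as log2 intensity relative to the array's 75th percentile, with points for arrays 1 to 5 from left to right, lines for group means and bars for the SD. The injured arrays of Spry1 (0.83 to 1.65) lie below the uninjured ones of their genotype, those of Egr1 do so in Myd88KO, and those of Spry2 overlap.

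The 250 bases before the transcription start are given for Spry1, which passed the test, and for its relative Spry2, which did not, to set their upstream letters side by side. They come from RefSeq, build GRCm38.p6, and 8 of the 10 members matched an entry there. Spry1 lies on the plus strand at chr3:37639697-37639946 and Spry2 on the minus strand at chr14:105896820-105897069. Sequences are 5′ to 3′ along the gene, and capitals mark a GC box (GGGCGG on either strand).
Spry1: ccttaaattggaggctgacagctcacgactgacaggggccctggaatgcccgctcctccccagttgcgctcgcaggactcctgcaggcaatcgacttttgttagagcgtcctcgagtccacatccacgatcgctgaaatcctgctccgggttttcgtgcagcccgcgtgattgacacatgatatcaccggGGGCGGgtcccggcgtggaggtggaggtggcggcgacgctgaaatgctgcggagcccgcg
Spry2: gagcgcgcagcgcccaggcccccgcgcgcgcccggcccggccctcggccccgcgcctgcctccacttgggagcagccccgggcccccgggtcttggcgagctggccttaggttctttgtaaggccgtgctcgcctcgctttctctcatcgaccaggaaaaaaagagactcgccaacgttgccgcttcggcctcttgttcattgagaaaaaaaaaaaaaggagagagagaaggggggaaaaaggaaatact
The Spry1 window held 1 GC box, which starts 60 bases before the transcription start, and the Spry2 window held 0, where 32.7% of 32851 promoter windows of this length had at least 1. Neither window held GGAAGT, the core of ETS factor sites (19.7% of all windows, either strand), or TGAGTCA, an AP-1 site (4.46% of all windows, either strand). A match is a run of letters only.

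The rest of the pathway was counted over lists of genes. In wild-type mice 1 of 10 inhibitor probes (6 of 9 genes tested) was called after injury, Spry1, and 0 of 14 target probes (9 of 10 genes). Of all probes, 5.26% were called in that comparison and 2.03% were called lower. In Myd88KO mice the counts were 1 of 10 and 1 of 14, Spry1 and Egr1, all of them lower, where 0.242% of all probes were called lower. The inhibitors' median difference was -0.052 in wild-type and -0.45 in Myd88KO, and the targets' was 0.015 and -0.42. The wild-type medians changed sign on leaving out single arrays (-0.14 to 0.013 and -0.037 to 0.086). At an unadjusted p under 0.05, 12 of the 24 inhibitor and target probes were lower and 1 was higher after injury in Myd88KO, against 2 and 2 in wild-type, where 12.2% and 11.9% of all probes were lower. The difference between the responses was below 0 for 20 of these 24 probes, with a median of -0.35, where 58.7% of all probes were below 0 with a median of -0.090, and 0 of the 24 passed the test for it. That median ranged from -0.35 to -0.20 over the alternatives. The lists were drawn up with results of these data known, so this is a description. With quantile normalization the Myd88KO median of the 24 probes was -0.38, with normexp background correction it was -0.28, and without injured array 5 it was -0.43.

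**Figure D5:**
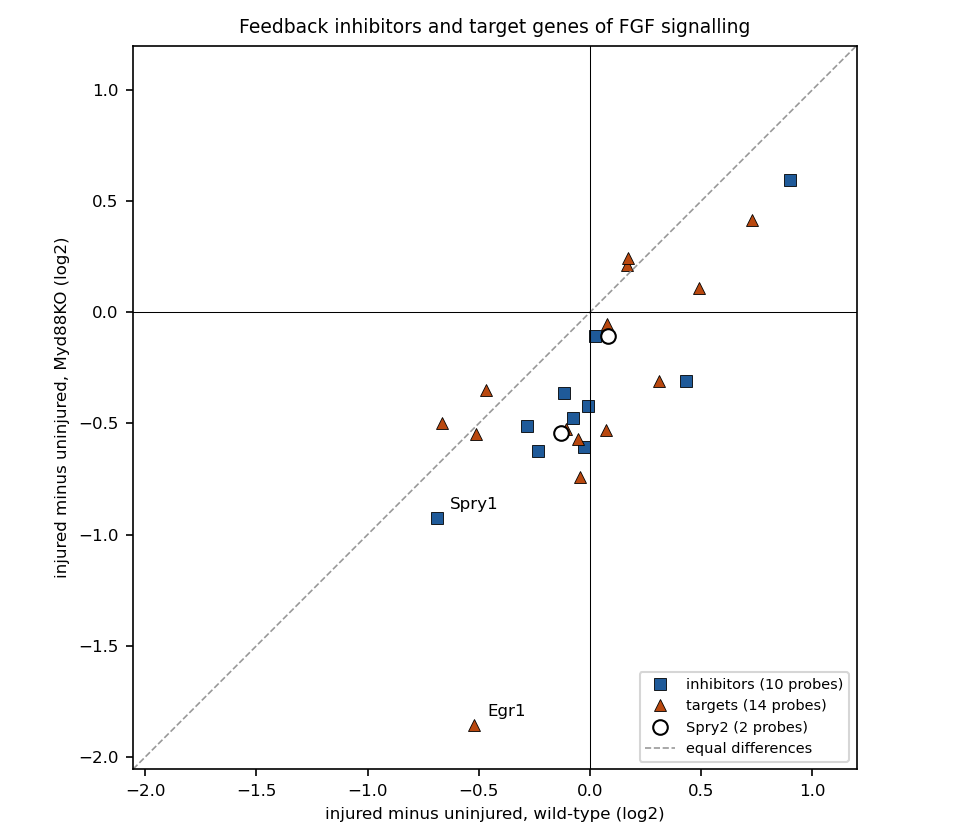
Injury differences on the log2 scale in wild-type (horizontal) and Myd88KO tracheas (vertical) for probes of feedback inhibitors (squares), target genes (triangles) and Spry2 (open circles), with a dashed line where both are equal. Most points lie below the line, with medians of -0.035 in wild-type and -0.45 in Myd88KO over the 24 inhibitor and target probes, and the called genes Spry1 and Egr1 are named.

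Other parts of the pathway held no called probe in any of the 5 comparisons. Of all probes, 5.26% were called for injury in wild-type and at most 0.384% in the other comparisons. Of 17 further ligand genes 7 were tested, by 9 probes, with medians of -0.13 and -0.22 after injury in wild-type and Myd88KO. The co-receptors and binding proteins (12 of 13 genes, 15 probes), which present the ligand to the receptor, had medians of -0.12 and -0.27. The relay from Frs2 to the MAP kinases (13 of 13 genes, 28 probes) had medians of 0.053 and -0.014, with every difference between -0.74 and 0.32.

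Between uninjured genotypes, 1 of 20 member probes, or 5%, had an unadjusted p under 0.05 (Fgfr4 probe 1), near the 5.59% of all probes. Another 1 of 20 was lower on every slide (Fgf7), near the 5.13% of all probes. Groups did not overlap for 1 of 20 (5%, Fgfr4 probe 1), against 2.51% of all probes in either direction and 1.71% with the knockout higher. In uninjured tracheas the median over the 20 probes was -0.033, against 0.036 for all probes, and in injured tracheas it was -0.16 against -0.034. Leaving out single arrays moved these member medians between -0.091 and 0.053 and between -0.17 and 0.037, so neither kept its sign. The brighter Fgf1 probe was higher in injured Myd88KO than in injured wild-type on all 5 slides (as for 5.82% of all probes), with an interval of -0.19 to 0.80 for the difference, while the dimmer probe was higher on 3 of 5. Fgfr3 was higher in injured Myd88KO than in injured wild-type by 0.56, 0.50 and 0.56 on its 3 probes (adjusted p = 0.444, 0.438 and 0.627). The 95% intervals of the 20 probes reached 0.36 to 0.89 to either side, before any adjustment over probes. With 5 arrays a group, differences of these sizes and larger ones could go uncalled. The genotype difference of Fgfr4 probe 1 in uninjured tracheas exceeded its own interval's reach and was not called.

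The genes whose levels most resembled each member over the 20 arrays were read as a description, by Pearson's r of the brightest probe of each of 14607 genes. Shared slide and scan day enter these values. Fgf1 was most like Tacr1 (0.92), Gnaz (0.90) and Mturn (0.88), Fgf10 like Megf10 (0.86), Syne1 (0.86) and Shox2 (0.85), and Fgf7 like Pcdhb7 (0.91), Pcdhb20 (0.90) and Jkamp (0.89). Fgf18 was most like Megf11 (0.82), Acan, the cartilage proteoglycan aggrecan (0.79), and Sphk1 (0.77). Fgfr1 was nearest to Vps37c (0.97), Ppp2r1a (0.95) and Vgll4 (0.95), and Fgfr2 to Spef1, a protein of cilia (0.92), Cyp2j6 (0.92) and Bmp6 (0.91). Fgfr3 had Ptpru (0.89), Ripk4 (0.89) and Prkci (0.88) as its nearest genes, Fgfr4 probe 1 had Crat (0.89) and Stradb (0.88), and Spry2 had Stat5b (0.90), Tob2 (0.90) and Rpp21 (0.89).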

How the data were processed

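Whole-trachea RNA of 20 mice was hybridized to single-colour Agilent arrays. The authors deposited scanner output as background-subtracted intensity per spot (Feature Extraction 9.5.1.1), which had not been scaled between arrays, and a table of the same intensity, rounded. The genome build of the coordinates in the files is not given in the sources used here, so only distances are given. Control spots (1639 of 45018) and outlier spots (1960 in all) were left out here, spots of a probe were averaged, and log2 intensity minus the array's 75th percentile (495 to 972) was used. A probe had to be well above background on 10 or more of 20 arrays, which left 26063 of 41174 for testing, with limma 3.58.1 in R 4.3.3 (lmFit and eBayes, all arrays in 1 fit) and Benjamini-Hochberg adjustment. The fit was tested on simulated data that held no shift between slides or scan days, so that test does not cover such shifts. The share of spots well above background was 57.5% to 67.8%, and the number of arrays limits the precision.

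Named genes are all members, called genes of the pathway lists (other ligands, co-receptors, relay, inhibitors, targets, splicing factors), Myd88 and the 3 genes most like each member whose brightest probe was well above background on every array. A gene that this rule named is not reported here. Markers are given as counts, medians and sums of relative intensity. Members and lists were chosen with earlier results of these data known. Alternatives were the slide or scan day as a block, other filters, background correction, normalization, the deposited table, array weights, only the groups compared, the methods' one-way test and leaving out each array.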

Additional observations from a re-analysis of the deposited data

Results flagged for a closer look

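In groups of 5, an array was looked for whose gap to its nearest neighbour exceeded 0.71 of the group's range (Dixon's criterion), and 2 of 80 sets of member values held one, where chance gives about 1 in 20. Fgfr3 probe 2 was at 1.39 in uninjured wild-type array 3, against 0.41 to 0.68 in the other uninjured wild-type arrays. Fgfr4 probe 3 was at -2.87 in injured Myd88KO array 2, against -3.63 to -3.43 in the rest of that group.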

How the results depend on the processing

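The count of called member probes, 0 in each comparison, was recomputed under 10 other settings, at an adjusted p under 0.05 and with each of the 20 arrays left out. For injury in wild-type it became 1 at the threshold of 0.05, with array weights and with only the groups compared (Fgf1 probe 1 each time). It became 2 with the scan day as a block (both Fgf1 probes). In these 4 settings 12.7%, 9.97%, 6.06% and 8.08% of all probes passed. Leaving out single arrays gave 0 to 1, with 1 without uninjured Myd88KO array 2 (Fgf1 probe 1, adjusted p = 0.00882), where 4.39% of all probes were called. For injury in Myd88KO it became 1 at the threshold of 0.05 (Fgfr4 probe 1), which 3.23% of all probes passed. It became 3 with array weights (both Fgf1 probes and Fgfr4 probe 1), which raised the calls over all probes from 0.376% to 7.29%. Leaving out single arrays gave 0 to 1, with 1 without injured array 5 (Fgfr4 probe 1), where 4.12% of all probes were called. The count stayed at 0 for the other 3 comparisons.

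With the replicate number, which is the slide, as a block, 0 member probes were called in all 5 comparisons. Of all probes, that fit called 5.94% for injury in wild-type and 0.549% for injury in Myd88KO. It called 0.388% and 0.43% for genotype in uninjured and injured tracheas, and 0.00384% for the difference between responses. Deviations from the group means of arrays on the same slide correlated at -0.26 to 0.48 over 30 pairs, with a median of 0.24. For 120 pairs on different slides the range was -0.51 to 0.54 and the median -0.080. The ranges overlap, so the numbers pair the samples only in part.

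Of the 1116 values of the 38 differences examined, 7 changed sign, all when 1 array was left out and all in differences that passed no test. Fgfr3 in Myd88KO injury was -0.037, -0.064 and -0.083 on its 3 probes without uninjured Myd88KO array 1 and -0.062, -0.084 and -0.10 without injured array 3, and ranged up to 0.21, 0.15 and 0.46. Spry2 probe 1 in wild-type injury ranged from -0.25 to 0.025, the latter without uninjured wild-type array 5. Over the 10 settings the adjusted p ranged from 0.00455 to 0.0228 for Fgf1 probe 1 in wild-type, from 0.00271 to 0.199 for Fgfr4 probe 1 in Myd88KO, from 0.00142 to 0.00933 for Spry1 in wild-type, and from 7.60e-05 to 0.117 for Spry1 and 0.000762 to 0.109 for Egr1 in Myd88KO. The call of Spry1 ended on leaving out 5 of the 20 arrays in turn for wild-type (adjusted p at most 0.0147) and 8 for Myd88KO (at most 0.0194), and that of Egr1 on leaving out 7 (at most 0.0205). The methods' one-way test gave 0.117 for Spry1 and 0.109 for Egr1 in Myd88KO, where it called 0 of all 26063 probes. The causes were not tested.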
